A study of Mus musculus with 48 samples.

Results

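Astrocytes take up glutamate and potassium around neurons, move water across the vessel wall and pass ions and metabolites to one another through gap junctions. After injury or protein aggregation they can become reactive, a state known for thicker processes and more of the intermediate filaments GFAP and vimentin. The 10 genes described here cover these roles. *Gfap* and *Vim* encode filaments. *Aqp4*, *Gja1* and *Gjb6* encode a water channel and gap junction proteins. *Slc1a2*, *Slc1a3* and *Glul* take up and convert glutamate. *Aldh1l1* and *S100b* are cytosolic markers. They were found by exact match of their symbols and are 10 of the 19601 protein-coding genes in the batch-corrected table, which was made from a table of 55385 genes.

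The samples were 48 dissections of the substantia nigra (SN) from male C57Bl/6J mice with no transgene. Every mouse had received 1 injection of mouse α-synuclein (α-syn) into the right striatum, as preformed fibrils (PFFs) or, in the controls, as monomer, and then breathed 21% O2 (normoxia) or 11% O2 (hypoxia). Mice were injected at 121 days of age. Monomer mouse 11 at 11% O2 was killed 98 days after injection, and every other mouse 90 or 91 days after it. The sample labels describe housing at the assigned O2 from recovery onwards, whereas the design text of the series describes a start of hypoxia midway, and both cannot hold for the same mice. In the study's delayed-start experiment only PFF mice were moved to 11% O2, whereas this series holds monomer mice at 11% O2 as well. The corrected table holds 42 mice: 11 with monomer at 21% O2, 12 with PFF at 21% O2, 9 with monomer at 11% O2 and 10 with PFF at 11% O2. The SN is bulk tissue that holds neurons and all glia, so fewer cells of a type and less RNA per cell cannot be told apart. Injection was on 1 side, and the sources used here do not say which side of the SN was taken.

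The 42 libraries held 12360798 to 16566973 corrected counts, with a median of 14924511. The batches in the labels, which the study ties to the day of death, were spread unevenly. Monomer mice at 21% O2 came from batches 1 and 2 (4 and 7 mice), monomer mice at 11% O2 from batches 1 and 3 (4 and 5 mice), and both PFF groups came from all 3 batches. Batch 1 was therefore the only batch with monomer mice at both O2 levels, and it had 4 monomer mice at each. Log2 fold changes given within single batches were fitted on the counts before correction. Each gene was tested by edgeR's quasi-likelihood test on 14839 genes, and a call needed both an adjusted p under 0.05 and an increase or decrease of over 0.25 on the log2 scale. By this rule 3.70% of tested genes were called for PFF against monomer at 21% O2, 0% for PFF against monomer at 11% O2, 7.23% for 11% against 21% O2 in monomer mice, 0.580% for 11% against 21% O2 in PFF mice and 2.14% for the interaction of injection and O2.

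All 10 genes were detected in every mouse, with 20.8 TPM for *Vim* as the lowest value of any, and the 20 further astrocyte identity genes summed to at least 6193 TPM in each, so the tissue held the markers of the cell type. The order of their levels, in TPM (a share of the library's transcripts that allows for transcript length), was *Glul* (1752 ± 128, SD, n = 42), *Gfap* (1134 ± 378), *S100b* (866 ± 96.5), *Slc1a2* (451 ± 32.1), *Aqp4* (404 ± 83.1), *Gja1* (190 ± 24.1), *Slc1a3* (174.8 ± 13.7), *Gjb6* (median 156.9, SD 21.4), *Aldh1l1* (85.5 ± 8.58) and *Vim* (40.9 ± 11.9). *S100b* was above *Slc1a2*, *Aqp4* above *Gja1*, *Gjb6* above *Aldh1l1*, and *Aldh1l1* above *Vim* in 42 of 42 mice. The steps from *Gja1* to *Slc1a3* and from *Slc1a3* to *Gjb6* held in only 30 of 42 mice each, so these 3 neighbours did not separate beyond their spread. The step from *Slc1a2* to *Aqp4* held in 35 of 42 mice and that from *Gfap* to *S100b* in 36 of 42. *Gfap* ranged 6.35-fold from the lowest to the highest of the 42 mice, *Vim* 3.26-fold and *Aqp4* 2.47-fold, whereas *Glul* ranged 1.33-fold, *Slc1a2* 1.42-fold and *Slc1a3* 1.47-fold. For all 10 genes in all 4 comparisons of 2 groups, 40 of 40, the TPM of the groups overlapped. The share of all tested genes with such overlap was not computed, so this count does not set the 10 genes apart.

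**Figure D1:**
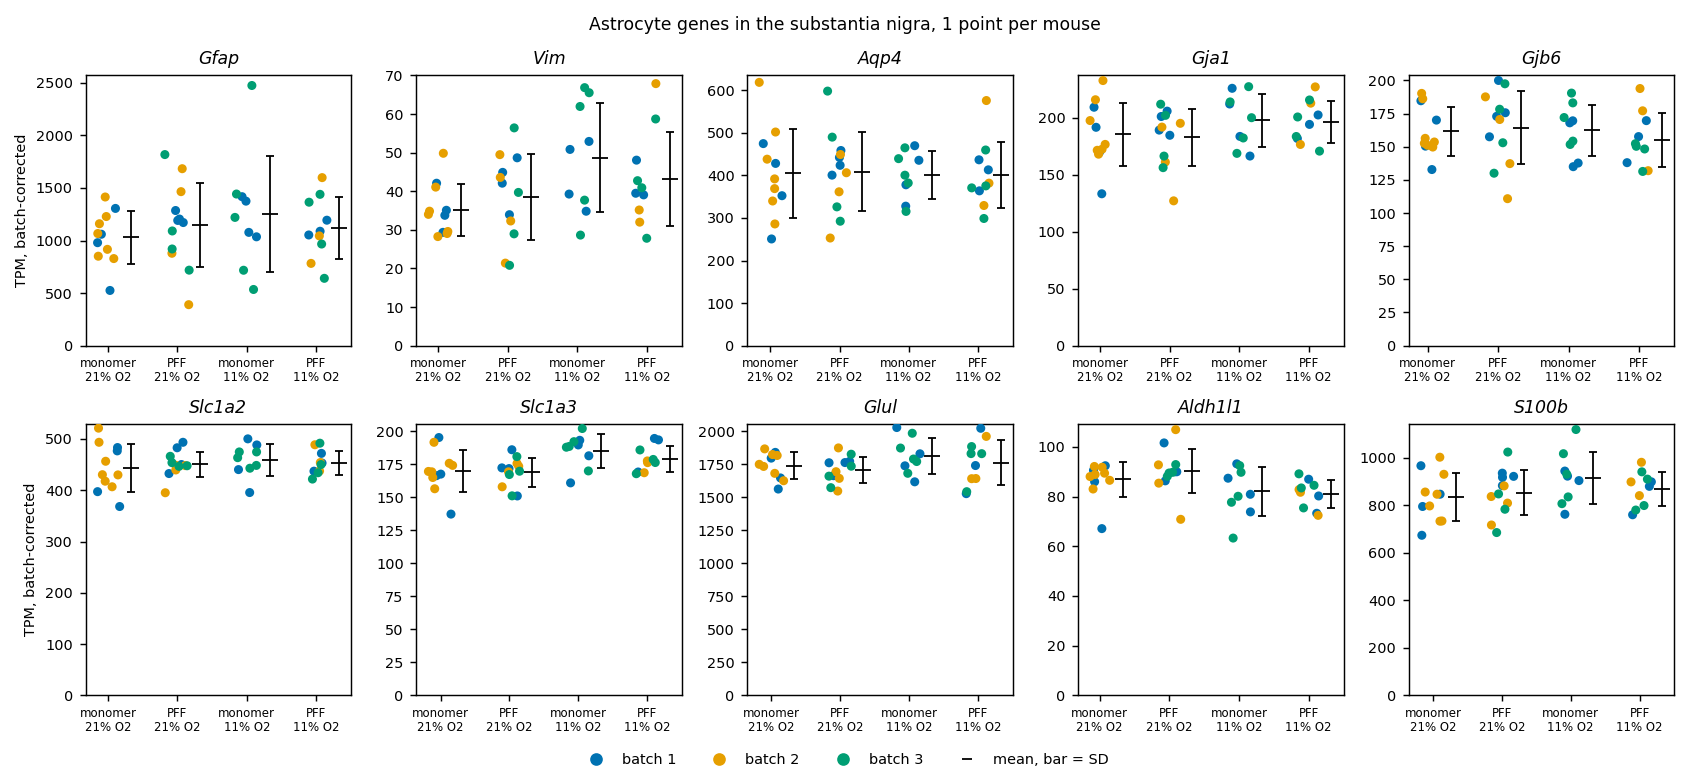
TPM of the 10 genes after batch correction (vertical axes, each from 0), with 1 point per mouse coloured by batch and the mean with SD beside each of the 4 groups. The groups overlap in every panel, and the mouse at 2475 TPM stands above all others for *Gfap*.

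Promoter sequences are shown for the 3 genes on which the results turn: *Vim*, the only gene called, *Gfap*, the most variable, and *Slc1a3*, which had the smallest p for O2 over both injections. Each runs 5′ to 3′ over the 250 bases before and the 50 bases after a RefSeq start site on GRCm38.p6, and 9 of the 10 genes matched the promoter table. In *Gfap* (chr11:102897151-102897450, minus strand) capitals mark TTCCNGGAA, a palindrome of the kind bound by STAT3, a factor known from reactive astrocytes. In *Vim* (chr2:13574061-13574360, plus strand) they mark the TATA box TATAAA. In *Slc1a3* (chr15:8710758-8711057, minus strand) they mark ACGTG, a core of the element bound by hypoxia-inducible factors.
Gfap: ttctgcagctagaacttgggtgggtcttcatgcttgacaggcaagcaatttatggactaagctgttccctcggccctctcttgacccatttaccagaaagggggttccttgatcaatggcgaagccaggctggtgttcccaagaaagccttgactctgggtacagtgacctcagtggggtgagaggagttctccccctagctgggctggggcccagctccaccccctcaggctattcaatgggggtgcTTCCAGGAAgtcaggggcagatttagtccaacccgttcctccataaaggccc
Vim: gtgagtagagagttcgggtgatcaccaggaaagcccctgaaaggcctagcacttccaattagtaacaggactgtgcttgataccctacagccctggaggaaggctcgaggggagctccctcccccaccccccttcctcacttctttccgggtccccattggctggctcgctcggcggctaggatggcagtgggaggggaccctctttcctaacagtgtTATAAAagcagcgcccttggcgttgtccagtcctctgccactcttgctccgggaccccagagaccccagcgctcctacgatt
Slc1a3: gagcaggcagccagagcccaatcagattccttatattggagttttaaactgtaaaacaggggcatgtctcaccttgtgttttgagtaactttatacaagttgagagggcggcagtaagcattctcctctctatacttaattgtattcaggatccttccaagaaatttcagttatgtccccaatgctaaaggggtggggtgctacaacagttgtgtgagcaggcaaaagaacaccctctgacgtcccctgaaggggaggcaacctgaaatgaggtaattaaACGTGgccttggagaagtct
Motifs were searched on both strands. The *Gfap* palindrome spans positions -2 to 7 around the start site (there is no position 0), and 1.15% of 32851 promoters hold this motif. The looser palindrome TTCNNNGAA, which contains the first, was found in *Gfap* at the same place and in *Slc1a3* at -96 to -88, and in 8.3% of all promoters. TATAAA lies at -32 to -27 in *Vim*, is found on the opposite strand in *Slc1a3*, and is held by 13.6% of all promoters. ACGTG lies at 31 to 35 in *Slc1a3* and in 19.6% of all promoters, and the variant core GCGTG was found in *Gja1* and *Gjb6* and in 32.4% of all promoters. These matches describe letters in a window and say nothing on binding.

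*Gfap* (chr11:102887336-102900912, GENCODE vM21 on GRCm38, minus strand) encodes the filament protein by which astrocytes are usually recognized. Its TPM had a lowest, median and highest value of 525, 1060 and 1414 in monomer mice at 21% O2 and of 390, 1181 and 1818 in PFF mice at 21% O2. The corresponding values were 534, 1220 and 2475 in monomer mice at 11% O2 and 640, 1071 and 1598 in PFF mice at 11% O2. Within each group the highest mouse thus had at least 2 times the TPM of the lowest, and neither injection nor O2 set the groups apart. The log2 fold change was 0.18 for PFF at 21% O2 (SE 0.196, 95% interval -0.22 to 0.57), -0.15 for PFF at 11% O2 (SE 0.215, -0.59 to 0.28), 0.29 for O2 in monomer mice (SE 0.210, -0.14 to 0.71) and -0.04 for O2 in PFF mice (SE 0.201, -0.45 to 0.36). None was called, with adjusted p by edgeR of 0.642, 1.00, 0.395 and 0.964. For PFF at 21% O2 the 95% interval ran from 0.859-fold to 1.49-fold, so changes within that range remain compatible with these values. The interaction was -0.33 (SE 0.291, adjusted p = 0.641 by edgeR).

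The *Gfap* difference with O2 in monomer mice moved with which mice were kept. Monomer mouse 7 at 11% O2, from batch 3, had 2475 TPM, and the next mouse of its group had 1442 TPM. Without it the log2 fold change for O2 in monomer mice was 0.10 in place of 0.29, that for PFF at 11% O2 was 0.03 in place of -0.15, and the interaction was -0.14 in place of -0.33. With all 48 mice, the counts before correction and batch as a covariate, the value for O2 in monomer mice was 0.40 (SE 0.182, unadjusted p = 0.0356, adjusted p = 0.177 by edgeR). Left-out monomer mice 8 and 9 at 11% O2 had 1938 and 2071 TPM of *Gfap* before correction, above the 1921.5 TPM of the highest kept mouse of their group. In the comparison of PFF with monomer at 21% O2 *Gfap* gave 0.45 (SE 0.308) in batch 1, with 4 mice a group. It gave 0.05 (SE 0.142) in batch 2, with 7 monomer and 4 PFF mice. A difference between batches was not tested. Before correction monomer mouse 4 at 21% O2, from batch 1, had 229.55 TPM of *Gfap*. The other monomer mice of that batch at 21% O2 had 703 to 1101 TPM. For O2 in monomer mice *Gfap* was 0.39 (SE 0.308) within batch 1, and for O2 in PFF mice it was -0.21, 0.06 and -0.02 in batches 1, 2 and 3.

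*Vim* (chr2:13573927-13582826, plus strand) encodes vimentin, the filament partner of GFAP in reactive astrocytes, which endothelial cells, pericytes, fibroblasts and microglia make as well. It was the lowest of the 10 genes in level. Its TPM had a lowest, median and highest value of 28.3, 34.0 and 49.8 in monomer mice at 21% O2, 28.6, 50.8 and 66.8 in monomer mice at 11% O2, 20.8, 40.9 and 56.4 in PFF mice at 21% O2, and 27.8, 40.2 and 67.9 in PFF mice at 11% O2. In monomer mice at 11% O2, 8 of 9 mice lay above the median of the monomer mice at 21% O2 and 5 of 9 above the highest of them. *Vim* rose in this comparison by 1.39-fold (95% interval 1.10 to 1.75, log2 fold change 0.47, SE 0.165, adjusted p = 0.0478 by edgeR), and was the only 1 of the 10 genes called, beside 7.23% of all genes tested. In PFF mice the O2 difference was 0.17 (SE 0.158, adjusted p = 0.752), with -0.10, 0.28 and 0.22 within batches 1, 2 and 3, and the interaction, which tests the difference between these values, was -0.31 (SE 0.229, adjusted p = 0.560, by edgeR). PFF against monomer gave 0.15 at 21% O2 (SE 0.155, 95% interval -0.17 to 0.46) and -0.16 at 11% O2 (SE 0.168, -0.50 to 0.18). With the replicate number as a block the value at 11% O2 was -0.32 (SE 0.158, unadjusted p = 0.0478, adjusted p = 0.670 by edgeR) and the interaction -0.44 (SE 0.210, unadjusted p = 0.0430, adjusted p = 0.277 by edgeR).

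The *Vim* call stood at the edge of the threshold. With the counts before correction the log2 fold change was 0.29 (SE 0.194, adjusted p = 0.416 by edgeR) within batch 1, the only batch with monomer mice at both O2 levels. With the same counts of all 42 mice and batch as a covariate it was 0.42 (SE 0.171, adjusted p = 0.128 by edgeR). It was called by DESeq2 (adjusted p = 0.0470) but by none of 3 limma fits on TPM, with adjusted p of 0.0807 to 0.115. Leaving out 1 mouse at a time ended the call in 21 of 42 fits. These were the fits without monomer mice 1, 2, 4, 5, 6, 7, 9 or 11 at 21% O2 and without monomer mice 1, 4, 6, 7 or 11 at 11% O2 (adjusted p by edgeR 0.0581 to 0.113). They were also the fits without PFF mice 4, 7 or 12 at 21% O2 and without PFF mice 3, 4, 6, 9 or 10 at 11% O2, where the adjusted p by edgeR was 0.05001 to 0.0514. The log2 fold change itself stayed between 0.41 and 0.55. Its lowest value came without monomer mouse 11 at 11% O2 (adjusted p = 0.113 by edgeR), the mouse killed 98 days after injection.

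**Figure D2:**
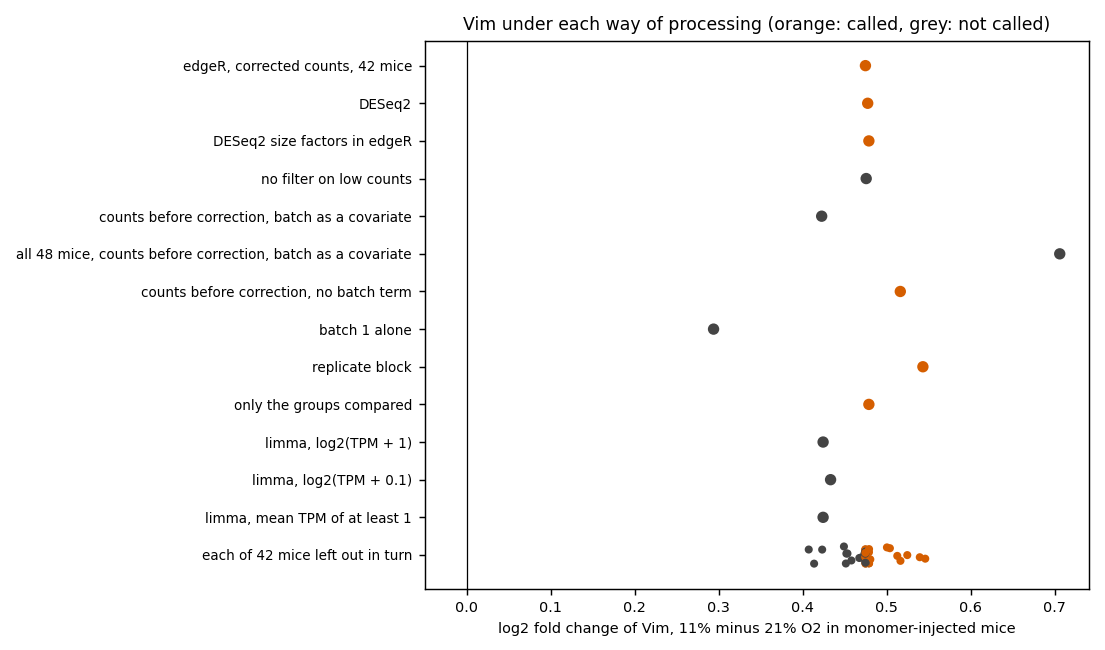
Log2 fold change of *Vim* for 11% against 21% O2 in monomer mice (horizontal axis) under each way of processing, with orange for called and grey for not called. All points lie above 0, from 0.29 in batch 1 alone to 0.71 with all 48 mice, and the fits that leave out 1 mouse split evenly between called and not called.

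Genes of vascular cells, which also make vimentin, rose in the same comparison. For 11% against 21% O2 in monomer mice 8 of 8 endothelial genes were called higher (median log2 fold change 0.52) and 5 of the 6 tested genes of pericytes and smooth muscle (median 0.68). Over all genes 7.23% were called and the median was -0.01. Of all 22 list calls in this comparison, those of other cell types included, 14 remained with the counts before correction and batch as a covariate in 42 mice. With 48 mice 12 remained, and in batch 1 alone 7. The endothelial genes, with the smallest p for *Cldn5* (0.74, a tight junction protein), *Esam* (0.48, an adhesion protein), *Pecam1* (0.65, an adhesion protein) and *Flt1* (0.52, a receptor for VEGF), had a summed level of 223 to 303 TPM in monomer mice at 21% O2 and 300 to 543 TPM at 11% O2. The genes of pericytes and smooth muscle, with the smallest p for *Abcc9* (0.61), *Pdgfrb* (0.51), *Kcnj8* (0.57) and *Rgs5* (0.74), summed to 82.7 to 123.4 TPM and 126 to 300 TPM. The ranges of the latter sums did not overlap, and the share of all genes without overlap was not computed. The 6 fibroblast genes were all higher without a call (median 0.41), with sums of 18.4 to 89.3 TPM and 19.6 to 133 TPM, and the 10 microglia genes likewise (median 0.18), with sums of 1165 to 2153 TPM and 1411 to 2308 TPM. No gene of these lists was at 0 in all mice, and *Tagln* and *Igf2* averaged under 1 TPM. The part of these cells in the *Vim* result was not tested.

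*Aqp4* encodes the water channel of astrocyte endfeet, the processes that wrap vessels. Its TPM had a lowest, median and highest value of 251, 392 and 619 in monomer mice at 21% O2, 253, 415 and 598 in PFF mice at 21% O2, 315, 401 and 470 in monomer mice at 11% O2, and 299, 379 and 576 in PFF mice at 11% O2. The 4 group means, 401 to 409 TPM, lay far closer together than mice of a group. The log2 fold changes were 0.03 and 0.01 for PFF at 21% and 11% O2 and -0.01 and -0.03 for O2 in monomer and PFF mice, with SE of 0.123 to 0.135, and the interaction was -0.02 (SE 0.183). Each of the 4 intervals between groups stayed within -0.28 and 0.29. For *Aqp4*, PFF against monomer at 21% O2 gave 0.32 (SE 0.241) within batch 1 and -0.11 (SE 0.119) within batch 2, and O2 in monomer mice gave 0.16 (SE 0.241) within batch 1.

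*Gja1* (chr10:56377330-56402513, plus strand) and *Gjb6* (chr14:57123303-57133611, minus strand) encode connexin 43 and connexin 30, which join astrocytes into a network. *Gja1* averaged 185.5 ± 27.6 TPM (SD, n = 11) in monomer and 182.9 ± 25.1 TPM (n = 12) in PFF mice at 21% O2, and 198 ± 23.5 TPM (n = 9) and 197 ± 18.5 TPM (n = 10) at 11% O2. *Gjb6* averaged 161.6 ± 18.5 and 164.3 ± 27.5 TPM at 21% O2, and 162.4 ± 19.1 and 155 ± 20.2 TPM at 11% O2, in the same order. For O2 *Gja1* had a log2 fold change of 0.10 in monomer (SE 0.0836, adjusted p = 0.480 by edgeR) and 0.11 in PFF mice (SE 0.0797, adjusted p = 0.670), neither of which passed. Within batch 1 *Gja1* gave 0.20 (SE 0.161) in monomer mice and -0.08 (SE 0.174) in PFF mice, where batches 2 and 3 gave 0.27 and 0.07. For *Gjb6* the same values over all mice were 0.01 (SE 0.0878) and -0.08 (SE 0.0838), and within batch 1 -0.07 (SE 0.137) and -0.22 (SE 0.149). For *Gja1* PFF against monomer gave 0.23 (SE 0.161) in batch 1 and -0.13 in batch 2 at 21% O2, around a value of -0.003 in the fit of all 42 mice.

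*Slc1a2* (chr2:102658659-102790784, plus strand) encodes GLT-1, which clears most glutamate in the forebrain, and *Glul* (chr1:153899944-153909723, plus strand, from a gene version other than that of the files, so its ends may differ) encodes glutamine synthetase, which converts it. They were the steadiest of the 10 genes together with *Slc1a3*. *Slc1a2* averaged 444 ± 46.4, 450 ± 24.7, 459 ± 31.3 and 454 ± 23.5 TPM (SD) in monomer and PFF mice at 21% O2 and in monomer and PFF mice at 11% O2. *Glul* averaged 1741 ± 99.6, 1710 ± 97.7, 1813 ± 134 and 1763 ± 171.5 TPM in the same order. All 4 log2 fold changes between groups lay between 0.00 and 0.05 for *Slc1a2* (SE 0.0464 to 0.0511) and between -0.03 and 0.06 for *Glul* (SE 0.0468 to 0.0515). The 95% intervals of these comparisons reached at most 1.11-fold for *Slc1a2* and 1.12-fold for *Glul*. Within batch 1 O2 in monomer mice gave 0.09 (SE 0.0847) for *Slc1a2* and 0.08 (SE 0.0649) for *Glul*.

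*Slc1a3* (chr15:8634124-8710764, minus strand) encodes GLAST, the other astrocyte glutamate transporter. Its TPM had a lowest, median and highest value of 137, 169 and 195 in monomer mice at 21% O2, 150.9, 170.6 and 185.9 in PFF mice at 21% O2, 160.8, 188.4 and 201.95 in monomer mice at 11% O2, and 168, 176.8 and 194 in PFF mice at 11% O2. At 11% O2, 8 of 9 monomer and 7 of 10 PFF mice lay above the median of the mice with the same injection at 21% O2. The log2 fold change for O2 was 0.13 in monomer mice (SE 0.0451, 95% interval 0.04 to 0.22, adjusted p = 0.0509 by edgeR and 0.0330 by DESeq2) and 0.08 in PFF mice (SE 0.0430, -0.002 to 0.17, adjusted p = 0.484 by edgeR). Within batch 1 these were 0.14 (SE 0.0719) and 0.11 (SE 0.0775), and in PFF mice 0.07 in both batch 2 and batch 3. All of these values are below the fold threshold. PFF against monomer gave 0.01 at 21% O2 (SE 0.0420) and -0.03 at 11% O2 (SE 0.0462).

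*Aldh1l1* (chr6:90486427-90600203, plus strand) encodes a folate enzyme widely used as a marker of all astrocytes, and *S100b* (chr10:76253853-76261159, plus strand) a calcium-binding protein that oligodendrocytes make as well. *Aldh1l1* had a lowest, median and highest TPM of 67.1, 88.9 and 92.4 in monomer mice at 21% O2, 70.9, 89.9 and 107 in PFF mice at 21% O2, 63.3, 80.9 and 93.2 in monomer mice at 11% O2, and 72.5, 82.3 and 89.2 in PFF mice at 11% O2. All 10 PFF mice at 11% O2 lay at or below the median of the PFF mice at 21% O2. The log2 fold change there was -0.15 (SE 0.0591, 95% interval -0.27 to -0.04), which had an unadjusted p of 0.0121 but did not pass (adjusted p = 0.296 by edgeR), and was -0.20, -0.15 and -0.12 within batches 1, 2 and 3. In monomer mice it was -0.08 (SE 0.0620), and 0.01 (SE 0.0967) within batch 1. *S100b* averaged 835 ± 102, 854 ± 95.6, 916 ± 109 and 870 ± 72.1 TPM (SD) in monomer and PFF mice at 21% O2 and in monomer and PFF mice at 11% O2, with a log2 fold change of 0.14 for O2 in monomer mice (SE 0.0728, adjusted p = 0.211) and 0.03 in PFF mice (SE 0.0694, adjusted p = 0.916). Within batch 1 *S100b* gave 0.12 (SE 0.111) in monomer mice and -0.13 (SE 0.121) in PFF mice, where batches 2 and 3 gave 0.18 and 0.03.

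**Figure D3:**
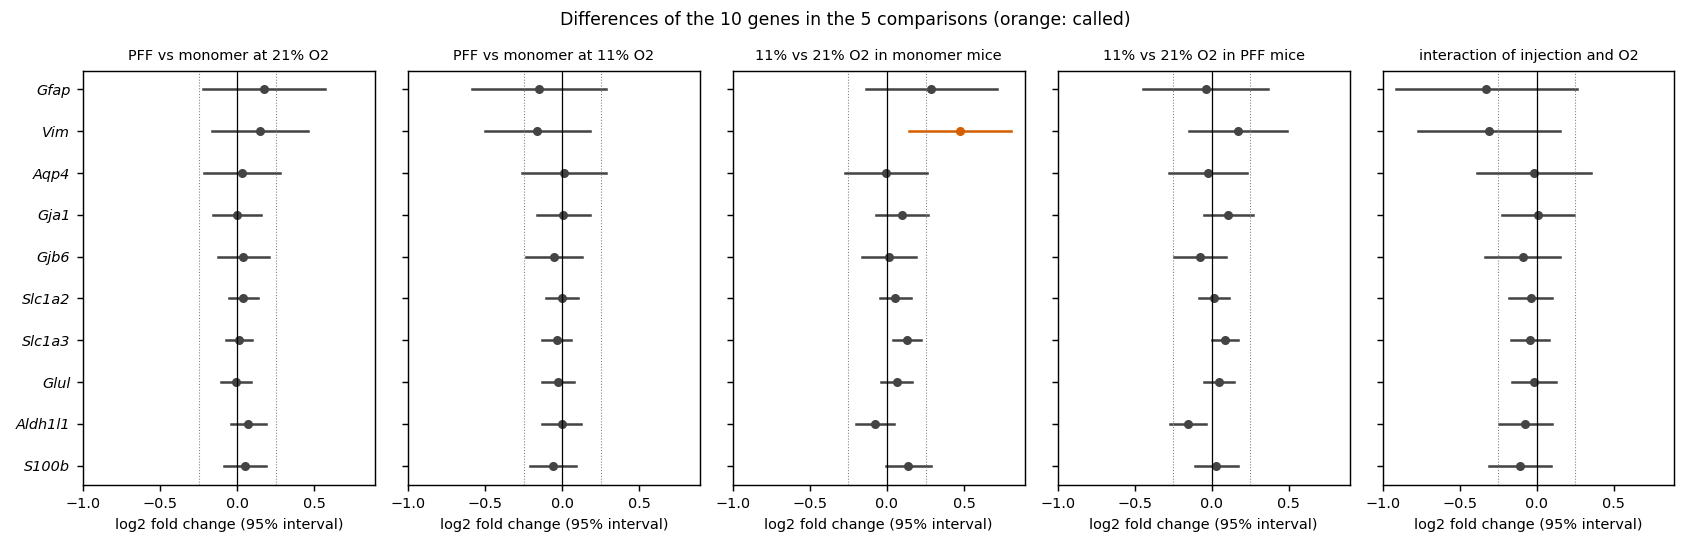
Log2 fold change (horizontal axis, point) with its 95% interval (line) of the 10 genes in each of the 5 comparisons, with dotted lines at the fold threshold of 0.25 and orange for called genes. *Vim* for 11% against 21% O2 in monomer mice is the only orange line, and the lines of *Gfap* are the widest.

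Counted over the 10 genes, PFF against monomer at 21% O2 gave 0 calls by edgeR, DESeq2 and limma and no gene at an unadjusted p under 0.05 by any of them, although 8 of 10 values were above 0 (median 0.04). In batch 1 alone 10 of 10 values were above 0 (median 0.19), and in batch 2 alone 3 of 10 (median -0.04). Monomer mouse 4, 1 of the 4 monomer mice at 21% O2 in batch 1, was the lowest of its group in 9 genes. PFF mouse 5, 1 of the 4 PFF mice at 21% O2 in batch 2, was the lowest of its group in 7. The part of these mice in the batch values was not tested. Across mice 37 of the 45 pairs of these genes were correlated, so the 10 signs are not independent. PFF against monomer at 11% O2 likewise gave 0 calls by these tools and 0 genes at an unadjusted p under 0.05 without the replicate block, with 8 of 10 values below 0 in edgeR (median -0.03). For O2 in monomer mice edgeR called 1 gene, and 2, *Vim* and *Slc1a3*, had an unadjusted p under 0.05. For O2 in PFF mice edgeR and DESeq2 gave 0 calls, with 1 gene at an unadjusted p under 0.05 by edgeR, *Aldh1l1*, and 2 by DESeq2, *Aldh1l1* and *Slc1a3*. The interaction gave 0 calls and, without that block, 0 genes at an unadjusted p under 0.05 by either tool, with 9 of 10 values below 0 (median -0.06). The comparisons share control mice, so their signs are not independent of each other. An unadjusted p under 0.05 by edgeR was held by 3317 of 14839 genes for PFF at 21% O2 and by 581 for PFF at 11% O2. It was held by 4108 for O2 in monomer mice, 1588 for O2 in PFF mice and 2279 for the interaction. The calls over all genes were 3.70%, 0%, 7.23%, 0.580% and 2.14% in that order.

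To use all mice at once, the O2 differences of both injections were averaged in the same fit, a comparison added after the values had been seen. It called 3.39% of all genes and none of the 10. *Slc1a3* had an adjusted p of 0.0225 by edgeR and 0.00975 by DESeq2, at a log2 fold change of 0.11 (SE 0.0312, 95% interval 0.04 to 0.17) that is under the fold threshold. *Vim* was 0.32 (SE 0.114, adjusted p = 0.0630 by edgeR) and *Aldh1l1* -0.12 (SE 0.0428, adjusted p = 0.0718 by edgeR). For *Vim* the value was 0.10 (SE 0.142) within batch 1 and 0.59 (SE 0.160, adjusted p = 0.0136 by edgeR, called) with all 48 mice, while *Slc1a3* kept 0.12 (SE 0.0529) and 0.11 (SE 0.0300). The injection differences averaged over both O2 levels called 0.135% of all genes and none of the 10. By edgeR and DESeq2 0 of the 10 had an unadjusted p under 0.05, beside 1664 of 14839 genes by edgeR. All 10 log2 fold changes lay between -0.02 and 0.03 there, with an interval for *Gfap* of -0.28 to 0.31 and for *Slc1a3* of -0.08 to 0.05.

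Other astrocyte genes were read from lists of identity genes and of genes known from reactive astrocytes, including those grouped in earlier work as A1 (raised by inflammation) and A2 (raised by ischaemia). Of 20 further identity genes 0 were called for PFF at 21% O2, beside 3.70% of all genes tested (median log2 fold change 0.05, beside 0.00 over all genes). For O2 in monomer mice 2 of 20 were called, beside 7.23% of all genes tested (median 0.09). These were *Ntsr2* (0.36, SE 0.0717, adjusted p = 0.000615 by edgeR), a neurotensin receptor, and *Agt* (0.30, SE 0.0845, adjusted p = 0.0139 by edgeR), which encodes angiotensinogen. For PFF at 11% O2, O2 in PFF mice and the interaction 0 of 20 were called, with medians of -0.01, 0.05 and -0.03.

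Of 11 genes shared by reactive astrocytes, PFF at 21% O2 gave 1 call higher, *Serpina3n* (0.29, SE 0.0802, adjusted p = 0.0195 by edgeR), a secreted protease inhibitor, and 1 lower, *Hspb1* (-0.84, SE 0.170, adjusted p = 0.00143 by edgeR), a small heat shock protein (median 0.10). O2 in monomer mice gave 1 call higher, *S1pr3* (0.26, a sphingosine phosphate receptor), and 1 lower, *Hspb1* (-1.02), with a median of 0.25. Of 11 A1 genes 2 were called higher for PFF at 21% O2, *H2-T23* (0.27) and *Psmb8* (0.37), both of antigen presentation, with a median of 0.19, and 1 for O2 in monomer mice, *H2-T23* (0.26), with a median of 0.24. Of the 10 tested of 12 A2 genes 0 were called in any of the 5 comparisons by edgeR, with medians of 0.14, 0.12, 0.12, 0.12 and 0.02 in the order of the comparisons above. In the other 3 comparisons 0 of the genes shared by reactive astrocytes and 0 of the A1 genes were called. Their medians were -0.12 and -0.06 for PFF at 11% O2, -0.02 and -0.06 for O2 in PFF mice, and -0.20 and -0.33 for the interaction. Over all genes tested 3.70% were called for PFF at 21% O2 and 7.23% for O2 in monomer mice. The lists of reactive astrocyte genes were not tested as sets, and which cells of this bulk tissue expressed them was not tested. Of the A2 genes *Tgm1* and *B3gnt5*, both tested, and *Ptx3* and *Slc10a6*, not tested, averaged under 1 TPM in each group. Of the shared genes *Lcn2* averaged 0.64 TPM in monomer mice at 21% O2, with a lowest value of 0. With the counts before correction, batch as a covariate and all 48 mice, *H2-T23* and *Psmb8* were not called for PFF at 21% O2, nor *H2-T23* for O2 in monomer mice. Over all the lists read here 3 of 7 calls remained for PFF at 21% O2 and 12 of 22 for O2 in monomer mice in that fit, and 0 and 7 in batch 1 alone.

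**Figure D4:**
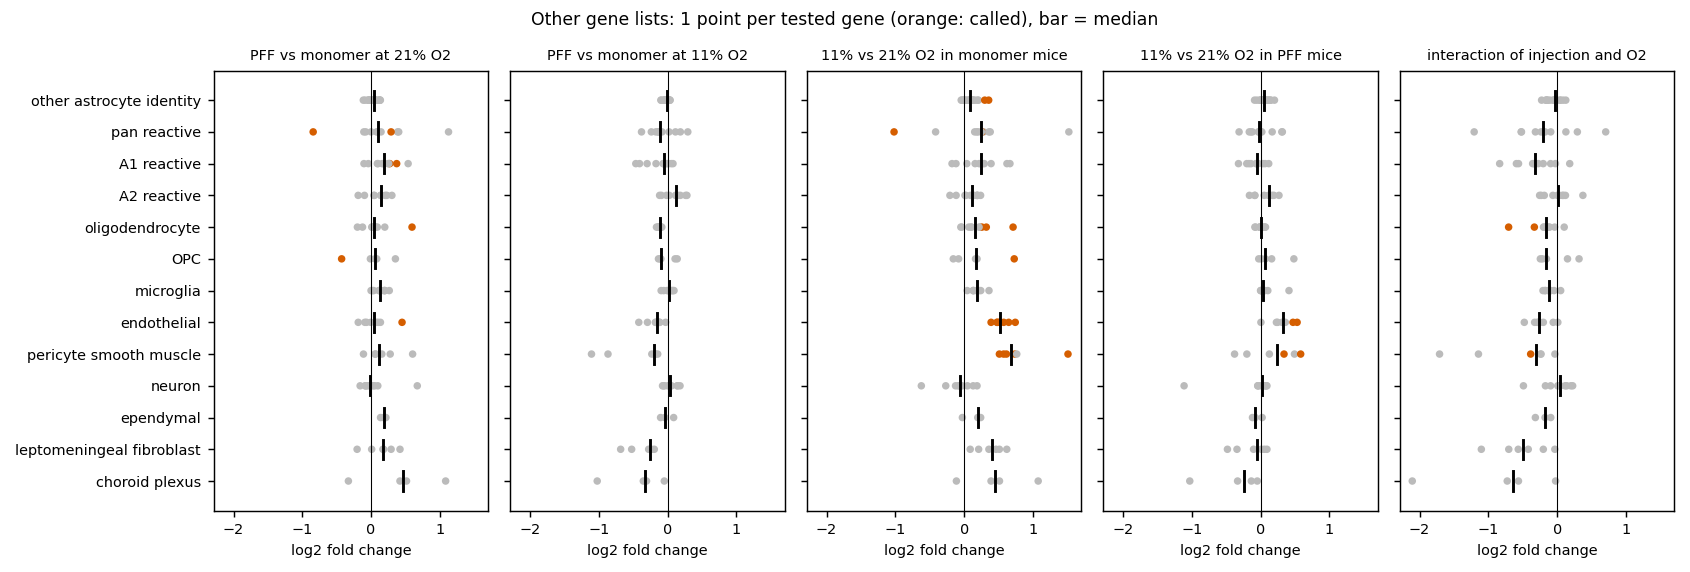
Log2 fold changes (horizontal axis) of the tested genes of each further list (rows), with 1 point per gene, orange for called genes and a bar at the median, in the 5 comparisons. The endothelial genes and those of pericytes and smooth muscle hold most of the orange points for 11% against 21% O2 in monomer mice, and the astrocyte lists hold few in any comparison.

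Across mice the 10 genes varied together once group and batch were removed. Of their 45 pairs all 45 had a Pearson r above 0 over the 42 mice (log2 CPM centred within group and batch), with a median of 0.563 and a range of 0.187 to 0.891, and 37 passed at an adjusted p under 0.05 (two-sided, 100000 permutations of mice within group and batch, adjusted over 45). Spearman's rho passed for 37 pairs as well. Over all 110090541 pairs of tested genes the median r was -0.001, with quartiles of -0.204 and 0.203, 12.8% of pairs reached the lowest r that passed among the 10 genes (0.342), and 2.91% lay above their median. Of the 37 pairs 35 had an r above 0 within each of the 3 batches (15, 14 and 13 mice).

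The closest pair was *Aqp4* and *Gja1*, with r = 0.891 (permutation p = 1e-05, the smallest 100000 permutations can give, adjusted p = 4.5e-05), rho = 0.909 (permutation p = 1e-05, adjusted p = 6.43e-05), r = 0.869 without the 2 mice farthest from the median of *Aqp4*, and r = 0.982, 0.848 and 0.897 within batches 1, 2 and 3. The filament pair, *Gfap* and *Vim*, had r = 0.849 and rho = 0.849, with the same permutation p of 1e-05, r = 0.846 without the 2 farthest mice, and r = 0.452, 0.897 and 0.900 within the batches. *S100b* followed *Aqp4* (r = 0.845) and *Gja1* (r = 0.824). *Slc1a3* stood apart: its median r with the other 9 was 0.342, against 0.786 for *Gja1*, and only 4 of its 9 pairs passed. Its r with *Slc1a2*, the other glutamate transporter, was 0.316 (permutation p = 0.198, adjusted p = 0.198), with rho = 0.217 (permutation p = 0.238) and r = 0.195 without the 2 farthest mice. *Glul* went most with *Aldh1l1* (r = 0.691), and least with *Aqp4* (r = 0.227) and *Vim* (r = 0.257). The pair of *Vim* and *Slc1a2* had the lowest r, 0.187 (permutation p = 0.178).

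**Figure D5:**
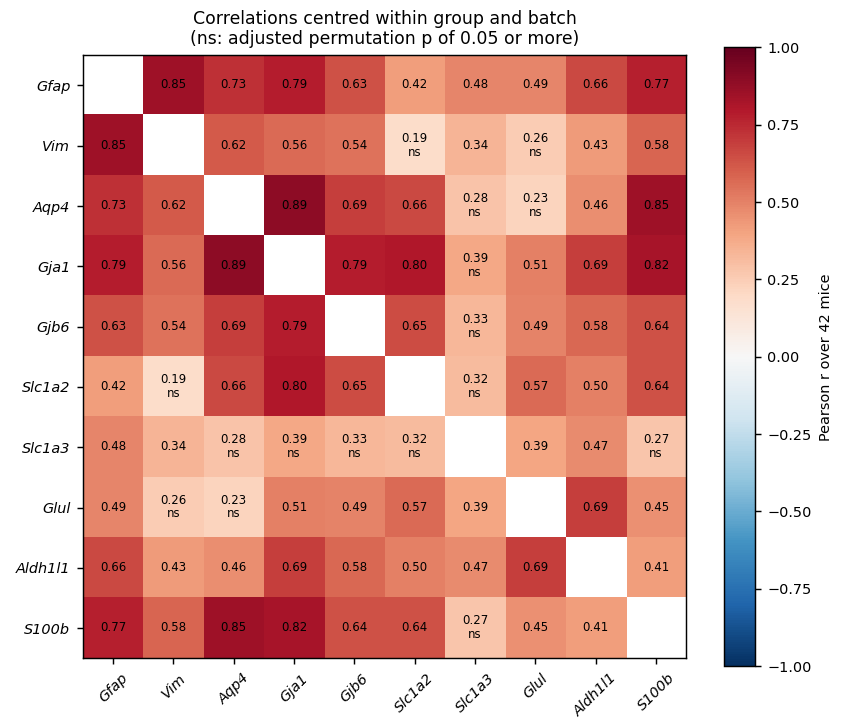
Pearson r of each pair of the 10 genes over 42 mice after centring within group and batch, from blue for -1 to red for 1, with ns for pairs whose adjusted permutation p was 0.05 or more. All pairs are red, and the row of *Slc1a3* is the palest.

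This shared variation was seen in single mice. Monomer mouse 4 at 21% O2, from batch 1, was the lowest of its 11 mice in 9 of the 10 genes, all but *Vim*, and PFF mouse 5 at 21% O2, from batch 2, the lowest of its 12 in 7. In the same 2 mice the summed level of the 20 further astrocyte genes was the lowest of the group (6193 and 6294 TPM), as was that of the microglia genes, while the sum of the 10 neuronal genes was 5351 TPM, the highest of 11, and 5549 TPM, the ninth of 12 from the lowest. Monomer mouse 6 at 21% O2, PFF mouse 10 at 21% O2 and PFF mouse 8 at 11% O2 were each the highest of their group in 5 of the 10 genes. These 3 mice had the lowest neuronal sum of their groups (3805, 3385 and 3638 TPM) and the highest microglial sum (2153, 2339 and 2638 TPM). Monomer mouse 3 at 11% O2, from batch 1, was the lowest of its 9 in 5 genes (*Gja1*, *Gjb6*, *Slc1a2*, *Glul* and *S100b*), with a neuronal sum that was the fifth and a microglial sum that was the second from the lowest. The part of tissue composition in the correlations was not tested.

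Outside the 10 genes, those most like each were found by the highest r over the same 42 mice among 14839 genes, given as a description. *Gfap* was followed most closely by *C4b* (r = 0.960), a complement component, *Padi2* (0.940) and *Nbl1* (0.928), and *Vim* by *S100a6* (0.857), *Nbl1* (0.850) and *Lgals1* (0.843). For *Aqp4* they were *Ednrb* (0.934), an endothelin receptor, *Fcrls* (0.907), a microglial gene, and *Tom1l1* (0.904). For *Gja1* they were *Abca1* (0.959), a cholesterol exporter, *Gna13* (0.941) and *Sparcl1* (0.940), and for *Gjb6* *Prodh* (0.890), *Cyp2d22* (0.879) and *Selenop* (0.856). *Slc1a2* went with *Trpm3* (0.907), *Ahcyl2* (0.907) and *Slc4a4* (0.902), a bicarbonate transporter of the identity list, and *Glul* with *Gpt2* (0.873), *Zcchc24* (0.848) and *Htra1* (0.847). *Aldh1l1* went with *Aldh2* (0.895), *Pygb* (0.889), the brain glycogen phosphorylase, and *Cotl1* (0.888), and *S100b* with *Dbi* (0.912), *Acadl* (0.890) and *Prdx6* (0.890). *Slc1a3* again had the weakest likeness: its first 3 were *Tmcc3* (0.785), *Secisbp2l* (0.781) and *Gab1* (0.759). The points of each r share library preparation and batch correction.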

How the data were processed

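Poly(A) RNA of the SN of 48 mice was sequenced. The authors removed ribosomal and duplicate reads, aligned with STAR (2.7.5a) to mm10 and counted reads per GENCODE gene with featureCounts (2.0.1), with no strand setting stated, and deposited these counts and the TPM computed from them. They then left out 6 mice, corrected batches in the other 42 with ComBat-seq, given the injection and O2 of each mouse, and deposited the corrected counts and TPM of protein-coding genes. The groups come from the labels, 1 library per mouse. Here the corrected counts were tested with edgeR (4.0.16, R 4.3.3), after TMM normalization and filterByExpr, with 4 groups in 1 fit and Benjamini–Hochberg adjustment over 14839 genes. Alternatives used DESeq2 (1.42.0), limma (3.58.1) on log2(TPM + pseudocount), counts before correction, single batches (on the counts before correction), a replicate block and leaving out each mouse. SE is the absolute log2 fold change over the square root of F. Correlations used log2 CPM with a prior count of 2. A change of sign was counted only where a value lay over 1 SE from 0.

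The 10 genes and the lists were chosen with earlier results of these data known. Of each list, the called genes with the smallest p were named, at most 4 a comparison, and for each of the 10 genes the 3 most alike. The study matched mice before assigning them to groups, by weight, age, delivery date and, where it could be done, cage. The sources used here do not say whether the replicate numbers follow this matching. After removal of group means, 21 of 54 same-numbered pairs had r over 0.1. Their median r was 0.003, against -0.014 for 605 other pairs, which cannot decide whether mice were matched. The main fit used no replicate block. Scripts were tested on simulated data. Intervals cover the spread between mice and not the batch correction.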

Additional observations from a re-analysis of the deposited data

Results flagged for a closer look

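*Gfap* in monomer mouse 7 at 11% O2 lay at 2475 TPM, with the nearest mouse of its 9 at 1442 TPM, a gap of 0.532 of the group's range against Dixon's critical value of 0.493. It was 1 of 20 groups of 9 or 10 mice checked in this way, and chance alone flags about 1 in 20. Before correction left-out mice 8 and 9 of the same group and batch had 1938 and 2071 TPM of *Gfap*, above the highest kept mouse (1921.5 TPM), so among all 12 mice of the group mouse 7 did not stand alone. It was the highest of the 9 kept mice for *Gja1*, *Slc1a3* and *S100b* as well, with no gap of that size, and had the lowest neuronal sum (3185 TPM) and the highest oligodendrocyte sum (14342 TPM) of its group. What this mouse shares with these sums was not tested.

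The O2 difference was tested for a difference between injections, and none of the 10 genes passed. Of the other lists 3 genes did, by edgeR's interaction term: *Opalin* (-0.71, SE 0.153, adjusted p = 0.00729) and *Mog* (-0.33, SE 0.0865, adjusted p = 0.0268), both of myelin, and *Pdgfrb* (-0.39, SE 0.101, adjusted p = 0.0268), a pericyte receptor. Of these 3 calls 1 remained with the counts before correction and batch as a covariate, *Opalin*, with 42 mice or 48, and 0 in batch 1 alone. Over all genes tested the interaction called 2.14%.

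The 6 mice that the authors left out were compared before correction with the highest of the 11 kept monomer mice at 21% O2. Of the 10 genes 7 lay above that mouse in each of monomer mice 8 and 9 at 11% O2 (batch 3), *Gfap*, *Vim*, *Aqp4*, *Gja1* and *S100b* in both. In monomer mouse 12 at 11% O2, 3 did (*Gfap*, *Vim* and *Slc1a3*), in PFF mouse 5 at 11% O2, 4 (*Gfap*, *Vim*, *Gjb6* and *Aldh1l1*), in monomer mouse 10 at 21% O2, 2 (*Vim* and *Gjb6*), and in PFF mouse 2 at 11% O2, 1 (*Vim*). *Vim* was thus above the highest kept monomer mouse at 21% O2 in 6 of 6. The last of these mice had 3134594 counts, against 12902996 to 17120921 in the kept mice, and lay below all kept mice of its group in 7 of the 10 genes. Batch 3 held no kept monomer mice at 21% O2, so batch and group cannot be told apart in monomer mice 8, 9 and 12 at 11% O2. The authors left these 6 mice out as outliers in a principal component analysis. The same counts over all genes were not made, so those above cannot be called particular to the 10 genes or to *Vim*.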

How the results depend on the processing

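The single call among the 10 genes, *Vim* for O2 in monomer mice, became 0 calls with no filter on low counts, with the counts before correction and batch as a covariate (42 or 48 mice), in batch 1 alone and in the 3 limma fits, and ranged from 0 to 1 when single mice were left out. The average of both O2 contrasts, added after the data were seen, called 1 gene in place of 0 (*Vim*) with all 48 mice and with the replicate block, 1 (*Slc1a3*) at adjusted p under 0.05 alone, and 0 to 1 without single mice. With the replicate block *Vim* for O2 in monomer mice was 0.54 and called, and the block changed no other call of the 10 genes in the 5 comparisons of the design. Calls in the other 4 comparisons of the design stayed at 0 of 10 under every alternative run for them, and the correlated pairs at 37 and 39 of 45. The interaction could be fitted within batch 1 only.

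Of 850 log2 fold changes of the 10 genes under 14 other settings 102 changed sign, and 13 of these lay over 1 SE from 0 in either fit. In batch 1 alone these were *Gja1* for PFF at 21% O2 (0.23), O2 in PFF mice (-0.0754) and the interaction (-0.27), *Vim* for O2 in PFF mice (-0.10) and averaged injection (0.17), *Gjb6* for averaged injection (0.12), *Aldh1l1* for O2 in monomer mice (0.0056), and *S100b* for O2 in PFF mice (-0.13) and averaged O2 (-0.0078). With all 48 mice they were *Aqp4* (-0.15) and *Gja1* (-0.10) for PFF at 11% O2 and *Gjb6* (0.12) for averaged O2, and without a batch term *Slc1a2* for O2 in monomer mice (-0.0045). Of the list genes *Gpr17* for PFF at 21% O2 was 0.0719 in batch 1 alone. Of 2940 values with single mice left out 0 changed sign past 1 SE. Of the calls in the other lists 5, 3 and 0 of 7 remained for PFF at 21% O2 with batch as a covariate in 42 mice, in 48 mice and in batch 1 alone, and 14, 12 and 7 of 22 for O2 in monomer mice. With the replicate block 5 of 7 and 21 of 22 remained. The cause of these changes was not tested.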

Other observations

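After PFF at 21% O2 1 of 10 oligodendrocyte genes was called, with 8 higher, 2 lower and a median of 0.04. Of 5 genes of precursors 1 was called, with 3 higher, 2 lower and a median of 0.06. *Opalin*, a myelin membrane protein, rose by 0.60 (SE 0.104, adjusted p = 0.000259 by edgeR), and *Gpr17*, a receptor of differentiating precursors, fell by 0.43 (SE 0.0862, adjusted p = 0.00143 by edgeR). In batch 1 alone, with 4 mice a group, neither was called, and the values were 0.0526 for *Opalin* and 0.0719, of the opposite sign, for *Gpr17*. For O2 in monomer mice, in the fit of all 42 mice, 3 of the 10 oligodendrocyte genes were called higher: *Opalin* (0.71), *Mog* (0.32) and *Cnp* (0.26). Of 5 genes of precursors 1 was called for O2 in monomer mice, *Bmp4* (0.73, SE 0.240, adjusted p = 0.0363 by edgeR). Over all genes tested 3.70% were called for PFF at 21% O2 and 7.23% for O2 in monomer mice.

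Of the 10 neuronal genes 0 were called in any of the 5 comparisons by edgeR, with medians of -0.02, 0.03, -0.06, 0.02 and 0.04 for PFF at 21% and 11% O2, O2 in monomer and PFF mice and the interaction. Choroid plexus genes had medians of 0.47, -0.33, 0.45, -0.24 and -0.65 in the same order with 0 of the 4 tested genes called, and summed to 4.67 to 317 TPM over the 42 mice. Of the 3 tested ependymal genes 0 were called, with medians of 0.18, -0.04, 0.20, -0.08 and -0.18. After PFF at 21% O2 1 of 8 endothelial genes was called, *Slco1a4* (0.45, SE 0.142, adjusted p = 0.0416 by edgeR), beside 3.70% of all genes. In PFF mice 2 endothelial genes were higher at 11% than at 21% O2, *Cldn5* (0.47) and *Flt1* (0.53), and 2 pericyte genes, *Kcnj8* (0.34) and *Abcc9* (0.58), beside 0.580% of all genes.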
